A study of Mus musculus with 12 samples.

Results

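The interferon regulatory factors (IRFs) Irf1, Irf2, Irf3, Irf4, Irf5, Irf7 and Irf9 were followed in mouse acute myeloid leukaemia cells after conditional loss of Riok2, a kinase gene of small ribosomal subunit maturation. The 7 genes were chosen by symbol, as IRF transcription factors other than Irf8, and each had 1 of the 24221 rows of the authors' deposited table. The study holds 12 samples of C57BL/6 strain leukaemia cells driven by the MLL-AF9 fusion, in 4 groups of 3. In the groups used here, Riok2fl/fl cells, whose Riok2 alleles are flanked by loxP sites, were kept for 72 h with hydroxytamoxifen (OHT), which switches on tamoxifen-dependent Cre recombinase, or with its vehicle ethanol (EtOH). Both groups carry MLL-AF9 and the floxed alleles. The labels name neither the Cre transgene and its promoter nor the number of lines or clones, and they do not say that replicates were separate cultures, so p-values may measure technical spread only. No group of cells without floxed Riok2 received OHT, so OHT exposure, Cre activity and loss of Riok2 cannot be told apart. The 6 samples of the other arm, given DMSO or a RIOK2 inhibitor at 1 µM, are not analysed here.

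IRFs share an amino-terminal DNA-binding domain that recognises repeats of GAAA, the core of the interferon-stimulated response element (ISRE). Irf3, Irf5 and Irf7 wait in the cytoplasm until kinases downstream of nucleic acid sensors and Toll-like receptors phosphorylate them, after which they switch on interferon and cytokine genes. Irf9 joins phosphorylated STAT proteins in the complex ISGF3, the main output of the type I interferon receptor. Irf1 activates many of the same sites and is itself induced through a gamma-activated site (GAS), and Irf2 competes with it. Irf4 works mostly in lymphoid cells, dendritic cells and alternatively activated macrophages, often beside the ETS factor PU.1. The abundance of an IRF mRNA does not show whether its protein was phosphorylated or nuclear.

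The promoters were read from RefSeq on GRCm38.p6, as windows of 300 bases with 250 before and 50 after the annotated start. All 7 genes matched a window, and Irf1 and Irf9 had more than 1 annotated start. The ISRE was searched as GAAANNGAAA on both strands and the GAS as TTCNNNGAA, which reads the same on both strands. A match is a run of letters and does not show that a factor was bound. Irf2 held the 1 ISRE match among the IRF genes, at chr8:46739504-46739513, and a GAS match at chr8:46739521-46739529. Irf1 held a GAS match at chr11:53769924-53769932, in the window of its first annotated start. ISRE matches occur in 3.44% and GAS matches in 8.30% of the 32851 mouse windows. Counted per gene, the shares are 3.99% and 9.55% of the 27025 genes with a window. No match of either kind lay in the windows of Irf3, Irf4, Irf5, Irf7 and Irf9. Only exact letters inside these windows were searched, so sites with other letters or further away are not seen. In a list of ISGF3 target genes described below, the ISRE search found a match in 10 of 23. The windows of Irf1 and Irf2 are shown with the matched letters in capitals, and that of Irf5, the IRF gene with the steepest rise, is shown beside them. They span chr11:53769764-53770063, chr8:46739495-46739794 and chr6:29526375-29526674, all on the plus strand.
Irf1: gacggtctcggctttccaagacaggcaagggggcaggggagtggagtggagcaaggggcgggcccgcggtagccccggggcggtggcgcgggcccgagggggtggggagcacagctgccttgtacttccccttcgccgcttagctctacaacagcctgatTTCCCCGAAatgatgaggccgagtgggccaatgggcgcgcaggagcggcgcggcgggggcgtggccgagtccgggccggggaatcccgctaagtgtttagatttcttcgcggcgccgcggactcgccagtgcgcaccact
Irf2: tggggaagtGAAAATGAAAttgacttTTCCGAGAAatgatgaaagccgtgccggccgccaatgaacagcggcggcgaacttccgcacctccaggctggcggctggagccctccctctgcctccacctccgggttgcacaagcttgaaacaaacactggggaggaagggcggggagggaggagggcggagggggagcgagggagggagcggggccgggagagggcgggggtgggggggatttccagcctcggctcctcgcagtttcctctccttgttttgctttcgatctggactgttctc
Irf5: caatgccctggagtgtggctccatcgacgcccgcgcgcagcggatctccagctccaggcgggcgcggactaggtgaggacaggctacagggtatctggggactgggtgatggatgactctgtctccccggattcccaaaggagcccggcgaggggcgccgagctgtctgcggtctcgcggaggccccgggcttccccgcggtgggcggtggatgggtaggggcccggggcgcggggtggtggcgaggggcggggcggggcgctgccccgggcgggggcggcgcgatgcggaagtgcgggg

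Of the 7 IRF genes, 5 rose in OHT, 0 fell, 1 did not pass the test and 1 was left without a p-value in the authors' deposited table. The threshold was the authors' adjusted p-value under 0.05, over the 13814 genes they tested with DESeq2. At that threshold 25.5% of all tested genes were higher and 23.4% lower in the authors' deposited table. Among the 9888 tested genes whose base mean reached 100, a level that each of the 7 IRF genes exceeds, 29.2% were higher and 30.0% lower. The base mean is the read count divided by a size factor and averaged over libraries. The median log2 fold change of the 6 tested IRF genes was 0.96, beside 0.050 over all tested genes. The authors' deposited table gives no value per sample, so the levels in single libraries, and whether the groups overlapped, are not analysed here. Folds were read as OHT over EtOH because Riok2, the targeted gene, had a log2 fold change of -3.60 ± 0.20 (SE) in the authors' deposited table, or 8.25% of its EtOH level. In bulk RNA, fewer cells of a type and less RNA per cell cannot be told apart.

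**Figure D1:**
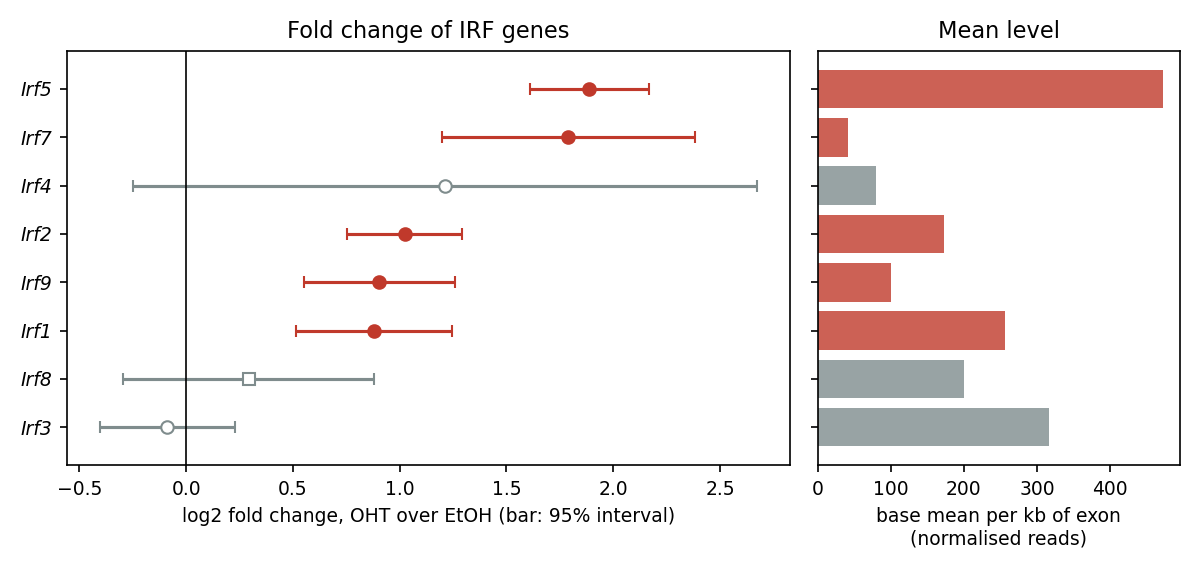
Log2 fold change (OHT over EtOH, left; points are the authors' estimates and bars 95% intervals from their standard errors) and base mean per kb of exon (right) of the 7 IRF genes (circles) and of Irf8 (square); red marks an adjusted p under 0.05. Irf5 and Irf7 lie furthest to the right, Irf1, Irf2 and Irf9 lie between 0.88 and 1.02, Irf3 lies near 0, and the bar of Irf4 spans 0.

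The IRFs that act directly behind Toll-like receptors and nucleic acid sensors did not move alike. Irf5, which drives inflammatory cytokine genes in myeloid cells, rose most, with a log2 fold change of 1.89 ± 0.14 (SE) at a base mean of 1371 (DESeq2 adjusted p = 5.0e-38) in the authors' deposited table. That is a 3.70-fold rise with a 95% interval of 3.05 to 4.49, and by p-value Irf5 ranked 69 of the 13814 tested genes. Irf7, the amplifier of type I interferon production, rose by a log2 fold change of 1.79 ± 0.30 (SE, DESeq2 adjusted p = 2.4e-08) at a base mean of 154 in the authors' deposited table. Its 3.46-fold rise had a 95% interval of 2.30 to 5.21. Irf3, the constitutive factor behind the first wave of interferon beta, had a log2 fold change of -0.09 ± 0.16 (SE) at a base mean of 1088 and did not pass the test (DESeq2 adjusted p = 0.68) in the authors' deposited table. Its 95% interval reached from 75.5 to 117% of the EtOH level. A fall to below that range, or a rise as large as those of Irf5 or Irf7, therefore lies outside its interval.

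Irf1, Irf2 and Irf9 had smaller estimated rises than Irf5 and Irf7, but their intervals overlapped that of Irf7. Irf2 had a log2 fold change of 1.02 ± 0.14 (SE, base mean 1281, DESeq2 adjusted p = 1.6e-12), a 2.03-fold rise with an interval of 1.69 to 2.45, in the authors' deposited table. Irf9, the DNA-binding part of ISGF3, had 0.91 ± 0.18 (SE, base mean 538, DESeq2 adjusted p = 2.7e-06), or 1.87-fold with an interval of 1.47 to 2.39, in the authors' deposited table. Irf1, the counterpart of Irf2, had a log2 fold change of 0.88 ± 0.19 (SE, base mean 1020, DESeq2 adjusted p = 1.3e-05) in the authors' deposited table. Its rise of 1.84-fold had an interval of 1.43 to 2.37. The activator Irf1 and its competitor Irf2 thus had overlapping intervals, and their difference was not tested. Of the 15 pairs among the 6 tested genes, 8 had intervals that did not overlap: each of the 5 genes that rose against Irf3, and Irf5 against Irf1, Irf2 and Irf9. These intervals rest on the authors' standard errors, which are taken to be bounded by a prior, and the genes share their libraries.

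Irf4 stood apart in precision. In the authors' deposited table it had a log2 fold change of 1.21 ± 0.75 (SE) at a base mean of 388, and the p-value was missing. Its interval reached from 0.842-fold to 6.39-fold, so a rise, a small fall and no change all lie within it. Among the 9915 genes with a fold change whose base mean reached 100, 99.9% had a smaller standard error than Irf4, and the largest in the table was 0.747. Irf4 is 1 of 51 genes whose fold change came without a p-value in the authors' deposited table; 50 of these folds were above 0, and 27 of these genes reached a base mean of 100. Their median standard error was 0.70. DESeq2 by default withholds the p-value of a gene in which 1 library has an outlying count; whether that happened for Irf4 was not tested. Irf7 had the next widest error of the IRF genes, larger than that of 92.7% of the same 9915 genes, and the other 5 lay between 17.7 and 57.1%.

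**Figure D2:**
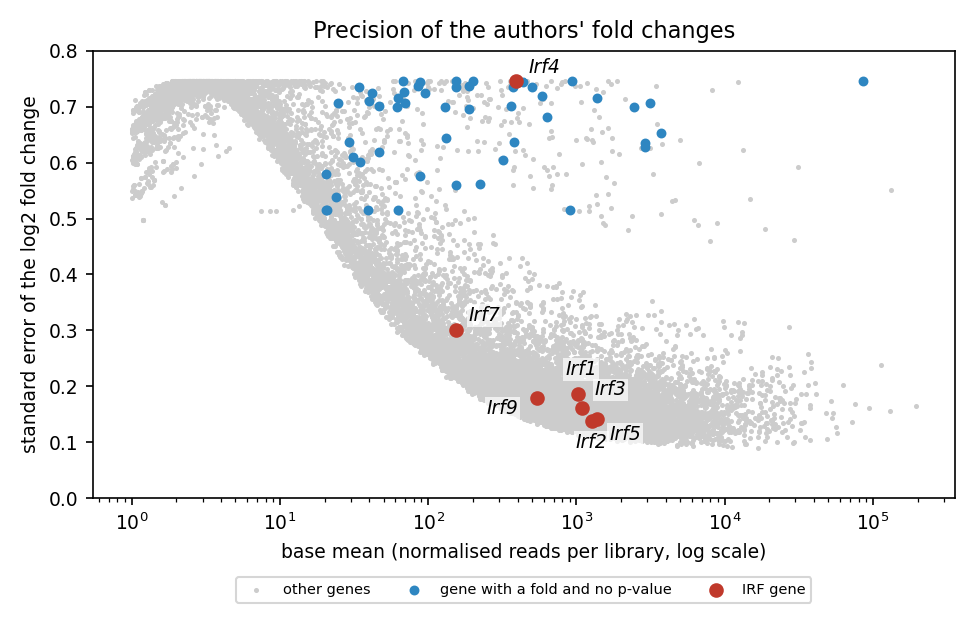
Standard error of the log2 fold change against base mean (log axis) for all genes whose base mean reached 1, with the IRF genes in red and genes that lack a p-value in blue. Irf4 sits at 0.75 in the upper band with blue points around it, and the other 6 IRF genes lie between 0.14 and 0.30.

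**Figure D3:**
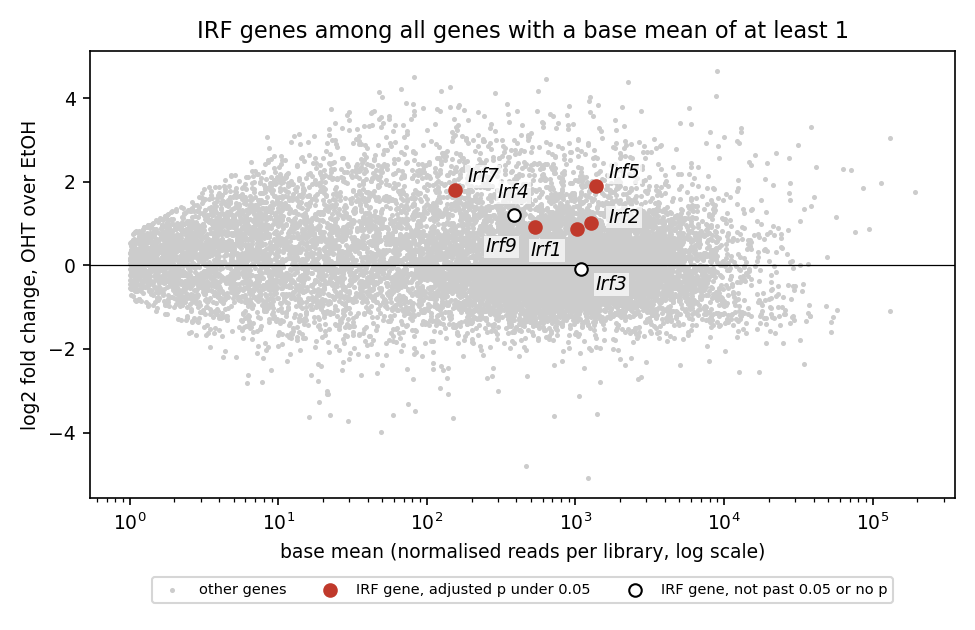
Log2 fold change (OHT over EtOH) against base mean (log axis) for all genes whose base mean reached 1 (grey), with IRF genes past the adjusted p threshold in red and the others as open circles. Irf5 and Irf7 have similar folds, 1.89 and 1.79, at base means of 1371 and 154.

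Levels were compared between genes per kb of merged GENCODE M21 exons, as base means over both groups. Exons were merged over all annotated transcripts of a gene. For Irf7 they cover the whole gene, 3776 bases, so this length can exceed that of an mRNA and lower the level. The order of the genes depends on these lengths. Averaged over both groups, Irf5 had the highest level of the 7 at 472 normalised reads per kb, followed by Irf3 at 316, Irf1 at 256 and Irf2 at 173. Irf9 (99.9), Irf4 (79.2) and Irf7 (40.7) were lower on the same scale. The spread of these levels over samples is not in the authors' deposited table, so neighbours in this order cannot be separated. The order turns when the averages are split by the authors' folds: the EtOH level was then 326 normalised reads per kb for Irf3, 201 for Irf5 and 181 for Irf1, and the OHT level 306 for Irf3, 743 for Irf5 and 332 for Irf1. These split levels assume groups of equal size, carry the errors of the folds and were not measured per sample. With these exon lengths Irf7 was lowest in both, at 18.2 in EtOH and 63.1 in OHT. Outside the 7, Irf8 had a log2 fold change of 0.29 ± 0.30 (SE, DESeq2 adjusted p = 0.44) at 200 normalised reads per kb in the authors' deposited table.

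The 7 genes are protein coding, and 5 share exon bases with a neighbour in GENCODE M21 on GRCm38. Irf5 (chr6:29526625-29541871, plus strand) shares 411 of its 2905 exon bases, 14.1%, with Tnpo3 on the opposite strand, a nuclear import receptor gene that fell by 0.36 ± 0.13 (SE, DESeq2 adjusted p = 0.013) in the authors' deposited table. Irf3 (chr7:44997648-45002848, plus) shares 88 bases with Bcl2l12 on the opposite strand, which fell by 0.49 ± 0.20 (SE, DESeq2 adjusted p = 0.035) there. Irf7 (chr7:141262706-141266481, minus) shares 45 bases with Phrf1 on the opposite strand, which had -0.05 ± 0.19 (SE, DESeq2 adjusted p = 0.85) in the authors' deposited table. Irf9 (chr14:55603571-55610030, plus) shares 123 bases with Rnf31 on the same strand, at 0.38 ± 0.22 (SE, DESeq2 adjusted p = 0.14) in the authors' deposited table. Irf1 (chr11:53770014-53778374, plus) shares 135 bases with Gm17334. Irf2 (chr8:46739732-46847458, plus) and Irf4 (chr13:30749226-30766976, plus) share none. The sources used here do not say whether counting used strand. The part of shared reads in the values of these genes was not tested.

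Genes upstream of the IRFs rose in part, beside 25.5% higher and 23.4% lower over all tested genes. The 4 interferon ligand genes looked at were near or at 0: Ifng and Ifne were listed at a base mean of 0, and Ifnb1 and Ifnk came to 1.28 and 2.14 normalised reads in all over 6 libraries in the authors' deposited table. The list held no interferon alpha or lambda ligand gene, so the levels of those were not looked at. Of 6 interferon receptor genes 5 rose and 0 fell (median log2 fold change 0.51). Ifnlr1, the ligand-binding chain for lambda interferons, rose by 3.06 ± 0.38 (SE), Ifngr2 by 0.96 ± 0.15, Ifnar1 by 0.55 ± 0.16 and Il10rb by 0.47 ± 0.11 in the authors' deposited table. The most abundant, Ifngr1, had -0.24 ± 0.18 (SE, DESeq2 adjusted p = 0.27) there. Of 10 JAK-STAT genes and inhibitors 8 rose and 0 fell, with a median of 0.82. The 4 kinases and STATs of this list rose, among them Jak1 (1.25 ± 0.11 SE) and Jak2 (0.86 ± 0.27) in the authors' deposited table. A partner of Irf9 in ISGF3, Stat2, rose by 0.78 ± 0.16 (SE, named with its value known) in the authors' deposited table. The feedback inhibitors Socs3 (1.65 ± 0.34 SE) and Socs1 (1.39 ± 0.38) and the phosphatase Ptpn6 (0.77 ± 0.16) rose as well in the authors' deposited table.

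Sensor genes had a larger median fold change than the adaptors and kinases behind them. Of 26 sensors, adaptors and kinases that feed Irf3, Irf5 and Irf7, 20 rose and 0 fell, beside the 25.5% and 23.4% of all genes. Of the 10 sensors 9 rose (median log2 fold change 1.69), and of the 16 adaptors and kinases 11 rose (median 0.48). The difference between these medians was not tested. The endosomal RNA receptors Tlr8 and Tlr7 rose by 3.68 ± 0.28 (SE) and 3.41 ± 0.28, the Z-nucleic acid sensor Zbp1 by 2.17 ± 0.31 and the RIG-I gene Ddx58 by 1.82 ± 0.17 in the authors' deposited table. Unc93b1, which carries endosomal Toll-like receptors to their compartment, was the most abundant of the 26 and rose by 0.92 ± 0.19 (SE) in the authors' deposited table. Of 12 tested partners and cofactors of IRF proteins 5 rose and 1 fell (median 0.55). Those that rose include the acetyltransferases Crebbp (1.08 ± 0.23 SE) and Ep300 (0.94 ± 0.18) in the authors' deposited table. PU.1 itself, Spi1 (0.71 ± 0.13 SE), and Trim21 (0.70 ± 0.17) rose as well in the authors' deposited table. The 1 that fell was Rbck1 (-0.51 ± 0.12 SE), a ubiquitin ligase subunit, in the authors' deposited table. Batf3, like Irf4, had a fold change (0.60 ± 0.62 SE) that came without a p-value in the authors' deposited table.

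Target lists of the IRFs were mixed, and their counts stand beside the 25.5% of all tested genes that rose and the 23.4% that fell. Of 29 tested genes of the ISGF3 list 18 rose, 0 fell and 11 did not pass (median log2 fold change 0.85). Oas2 and Oas3, which make the activator of RNase L, rose by 2.11 ± 0.36 (SE) and 1.94 ± 0.38, Parp14 by 2.06 ± 0.21 and the nucleotide hydrolase Samhd1, the most abundant, by 2.02 ± 0.14 in the authors' deposited table. Isg15, a common marker of the interferon response, had 0.51 ± 0.43 (SE, DESeq2 adjusted p = 0.34) at a base mean of 55.7 in the authors' deposited table and is named after its value was seen. Of 22 tested genes of the Irf1 and interferon gamma list 9 rose and 3 fell (median 0.58). The checkpoint ligand Cd274 rose by 3.30 ± 0.20 (SE), the MHC class I light chain B2m by 1.08 ± 0.17 and Irgm2 by 0.88 ± 0.20, while Gbp3 (-1.09 ± 0.24), the immunoproteasome subunit Psmb8 (-0.87 ± 0.14) and the peptide transporter Tap2 (-0.56 ± 0.17) fell in the authors' deposited table. Gbp3, Irgm2 and other listed genes of multigene families, such as the Oas, Ifit and Gbp genes, are uncertain where reads were shared with relatives. Of 8 tested cytokine genes of the Irf5 list 3 rose and 0 fell, too few genes for anything to be read about the list: Il1b by 2.57 ± 0.67 (SE), Ccl4 by 2.06 ± 0.72 and Tnf by 1.82 ± 0.29 in the authors' deposited table. The most abundant of them, Ccl3, had 1.57 ± 0.73 (SE, DESeq2 adjusted p = 0.065) there, and standard errors in this list had a median of 0.69, beside 0.21 over all tested genes.

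**Figure D4:**
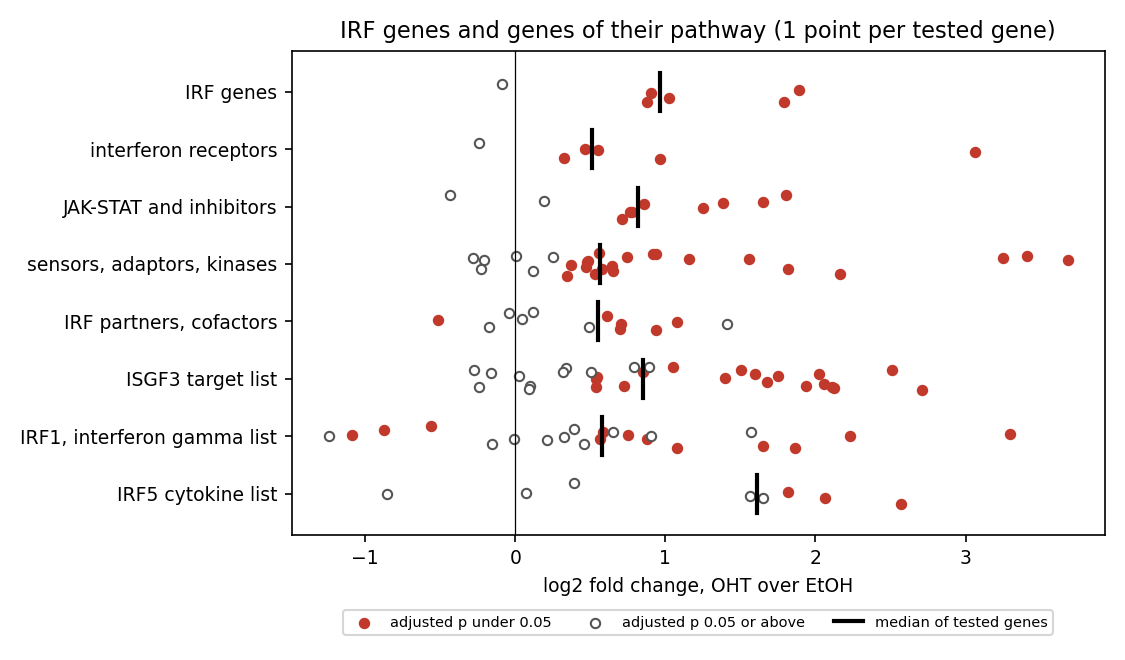
Log2 fold change (OHT over EtOH) of each tested IRF gene and of each tested gene of 7 pathway lists, with filled points past an adjusted p of 0.05 and a bar at the median of each row. Points past the threshold lie below 0 in 2 rows, the IRF partners (1 gene) and the Irf1 and interferon gamma list (3 genes).

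ISRE matches were counted in the target lists as well. Of 23 genes of the ISGF3 list with a promoter window, 10 held an ISRE match, as did 9 of 17 of the Irf1 and interferon gamma list, beside 3.99% of the 27025 genes with a window. Of 6 genes of the Irf5 cytokine list with a window 0 held an ISRE or a GAS match. The lists were composed of known interferon targets, so this share describes the lists. Among the 10 ISGF3 genes with a match, Oas3, Trim30a, Ifitm3, Rsad2 and Ifit3 rose and Isg15, Ifit1, Oas1a, Bst2 and Eif2ak2 did not pass the test. Only the match nearest to an annotated start is shown for each, in capitals with up to 10 flanking bases, on the strand that reads GAAA. Trim30a, Ifitm3, Ifit3, Isg15, Ifit1, Oas1a and Bst2 held further matches that are not shown. For Trim30a the match shown belongs to a start inside the gene, and another lay 36 bases before its outer start. The letters shown are therefore not all the matched letters of the genes that rose or did not.
Oas3, minus strand, match chr5:120777725-120777734: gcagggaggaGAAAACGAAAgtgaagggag
Trim30a, plus strand, match chr7:104446114-104446123: caggaactgaGAAAAAGAAActaaaaacaa
Ifitm3, minus strand, match chr7:141010733-141010742: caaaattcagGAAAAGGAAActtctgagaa
Rsad2, plus strand, match chr12:26456563-26456572: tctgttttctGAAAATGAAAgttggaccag
Ifit3, minus strand, match chr19:34583407-34583416: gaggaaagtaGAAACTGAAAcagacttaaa
Isg15, minus strand, match chr4:156200875-156200884: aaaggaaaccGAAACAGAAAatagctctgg
Ifit1, minus strand, match chr19:34640804-34640813: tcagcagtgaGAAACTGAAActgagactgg
Oas1a, minus strand, match chr5:120907530-120907539: tcgggaaatgGAAACTGAAAatctacttcc
Bst2, minus strand, match chr8:71537587-71537596: ccaggaaaatGAAACTGAAAggctgcagtt
Eif2ak2, minus strand, match chr17:78882545-78882554: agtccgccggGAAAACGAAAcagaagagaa
The letters GAAACTGAAA appear in Ifit3, which rose, and in Ifit1, Oas1a and Bst2, which did not pass. Ifit3 had 1.75 ± 0.72 (SE, DESeq2 adjusted p = 0.033) at a base mean of only 8.14 in the authors' deposited table. Ifit1 had 0.79 ± 0.60 (SE) at 24.7, Oas1a 0.10 ± 0.14 at 486 and Bst2 -0.16 ± 0.20 at 652 there. The intervals of Ifit3 (1.26 to 8.98-fold) and Ifit1 (0.767 to 3.89-fold) overlapped, and differences between these genes were not tested. Over all tested genes with a window, 31.3% of the 387 with an ISRE match were higher and 22.5% lower in OHT, beside 25.8% and 23.9% of those without one. For the GAS the shares with a match were 24.9% higher and 21.7% lower, for 880 genes. These shares are descriptions without a test.

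The cell labels were checked against markers. Each of the 8 myeloid leukaemia markers (Ptprc, Itgam, Kit, Mpo, Hoxa9, Meis1, Cebpa, Csf1r) was detected, with base means that summed to 75288. Of these 8 markers 3 rose and 3 fell, beside 25.5% higher and 23.4% lower over all tested genes. The integrin Itgam, of mature myeloid cells, rose by 2.44 ± 0.12 (SE), the CSF1 receptor gene Csf1r by 2.96 ± 0.20 and the pan-leukocyte Ptprc by 1.10 ± 0.12, while the granule peroxidase Mpo (-2.37 ± 0.23) and the leukaemia programme genes Hoxa9 (-0.55 ± 0.19) and Meis1 (-0.41 ± 0.14) fell in the authors' deposited table. Kit (0.31 ± 0.26 SE, DESeq2 adjusted p = 0.33) and Cebpa (-0.22 ± 0.11 SE, DESeq2 adjusted p = 0.099) did not pass the test there. The part of the marker changes in those of the IRF genes was not tested. The 15 markers of B, T and dendritic cells, in which Irf4 and Irf7 can be abundant, summed to a base mean of 125, and Ms4a1, Pax5, Cd3e and Cd8a were listed at 0 in the authors' deposited table. Of the 7 of these that were tested 4 rose and 0 fell, beside the same 25.5% and 23.4% of all tested genes. Those that rose were Prdm1, Cd79a, Cd3d and Clec9a, named after their values were seen. Base means were low for Cd3d (16.0), Cd79a (9.49) and Clec9a (3.91, DESeq2 adjusted p = 0.0499) in the authors' deposited table. Prdm1 had the highest base mean of them, 80.1, with a log2 fold change of 3.86 ± 0.46 (SE) in the authors' deposited table, and also acts in myeloid cells. Sums by group are not in the authors' deposited table, and the part of these markers in the rises of the IRF genes was not tested.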

How the data were processed

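Libraries were TruSeq RNA libraries of silica-column RNA, per the labels' protocols. The build was mm10, per the submitters' processing notes, which name STAR 2.7.2b, Trimmomatic 0.38.0, HTSeq 0.9.1, DESeq2 and DESeq. Annotation, strand setting and design formula are not stated there. The authors deposited 6 values per gene: the base mean, a signal averaged over libraries after size-factor scaling, the log2 fold change, its standard error, the Wald score, the raw p-value and the adjusted one. The columns are unnamed, and these identities were checked: the score equalled fold over error within 7.6e-08, and the adjusted p-value a Benjamini-Hochberg adjustment within 2.3e-07. Standard errors do not exceed 0.747, so folds are taken to be pulled towards 0. Base means summed to 20307732 per library; the depth of single samples is not analysed here.

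Computed here, in Python 3.11.15 with pandas 2.3.3 and scipy 1.17.1, were 95% intervals from the standard errors, counts at the authors' adjusted p-value under 0.05, list medians, merged exon lengths (GENCODE M21, GRCm38) and promoter matches. No test of samples was possible without values per sample. The code for the alternative thresholds and adjustments was first tested on simulated data; the printed counts come from the authors' deposited table. The members and lists were chosen with earlier results of these data known. Named genes are, per list, the most abundant tested member, up to 4 past the threshold with the largest change at a base mean of at least 100, and up to 3 that went against the list. Some genes of the lists are not reported here and enter no count of a list.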

Additional observations from a re-analysis of the deposited data

How the results depend on the processing

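The count of 5 higher and 0 lower IRF genes was unchanged with an adjusted p under 0.01, Bonferroni adjustment, adjustment over genes whose base mean reached 100 or over all genes with a p-value, a Student reference with 4 degrees of freedom and centring (a shift of -0.02). With a minimum absolute log2 fold change of 1, 3 were higher, and Irf1 and Irf9 were no longer counted. The highest adjusted p of Irf1 over these settings was 0.046, and that of Irf5 was 0.025, both under the Student reference. Of the pathway lists, 68 genes were higher and 4 lower; the counts were 27 and 1 with Bonferroni adjustment, 27 and 1 with the Student reference and 34 and 1 with the minimum fold. Over all 13814 tested genes 6752 passed, beside 2865, 3064 and 2891 in the same order. By direction, 3521 of all genes were higher and 3231 lower. The counts over all genes were 1529 and 1336 with Bonferroni adjustment and 1623 and 1441 with the Student reference. With the minimum fold they were 1882 higher and 1009 lower. The fewer calls follow from stricter rules. No paired analysis was possible because the deposited columns carry no values per sample, and leaving out replicates was not run for the same reason. Irf4 had no p-value and entered none of these counts.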
